A study of Homo sapiens with 36 samples.

Results

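Chronic lymphocytic leukaemia (CLL) is recognised in the clinic by a set of surface antigens, and several of these antigens are bound by therapeutic antibodies. The genes described here are 10 of this set: CD5, FCER2 (CD23), MS4A1 (CD20), CD52, CD24, CD38, CD200, ROR1, ZAP70 and LEF1. They were taken by symbol from the count table, in which they are 10 of 37549 gene symbols. The data were 36 RNA-sequencing libraries from 3 lines of B-cell origin, MEC1, JVM2 and EHEB. The treatments were vehicle (DMSO), fludarabine at 50 µM, ibrutinib at 5 µM and idelalisib at 10 µM, and every combination of line and treatment had 3 libraries. In the study's viability assays at 72 h, each dose exceeded the drug's half-maximal inhibitory concentration in control cells of MEC1 and JVM2. No such value was tabulated for EHEB. The part of reduced viability in the results below was not tested. MEC1 was harvested after 48 h, JVM2 after 72 h and EHEB after 96 h, so a difference between lines cannot be told apart from one of time. The questions were how the genes differed between the vehicle-treated lines and how each drug moved them within a line.

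Fludarabine is a purine analogue that blocks DNA synthesis, ibrutinib is a covalent inhibitor of the kinase BTK, and idelalisib inhibits the delta isoform of PI3-kinase. BTK and PI3-kinase delta both relay signals from the B-cell receptor. The study's methods describe the lines as B lymphoblastoid leukaemic cells with mutated p53 in MEC1 and wild-type p53 in EHEB and JVM2. Each group is therefore a model of 1 line and not of patients' cells, and the labels do not state whether its 3 libraries came from separate cultures, so that the p-values measure only the spread between these libraries. Within a line, DMSO and fludarabine libraries carried neighbouring numbers in their titles, whereas the kinase inhibitor libraries were numbered apart, without a DMSO library among them. The replicates of a group are called 1, 2 and 3 here in the order of those numbers. What differed between these number ranges cannot be told apart from the effect of the kinase inhibitors.

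A typical CLL cell carries CD5, FCER2, CD200 and ROR1 on its surface, little MS4A1, and the transcription factor LEF1 in its nucleus. CD5 is a scavenger-receptor glycoprotein that restrains antigen receptor signalling, FCER2 is the low-affinity receptor for IgE, CD200 is a ligand of an inhibitory receptor on myeloid and T cells, and ROR1 is a receptor for WNT5A. MS4A1 is the target of rituximab and obinutuzumab, CD52 that of alemtuzumab, and CD38, an enzyme that consumes NAD, that of daratumumab. CD24 is a small mucin-like antigen that, like CD52, is held in the membrane by a glycosylphosphatidylinositol (GPI) anchor. ZAP70, a kinase of the T-cell receptor, and CD38 are known as markers of poorer prognosis in CLL.

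Levels are given as CPM, the estimated counts divided by the library size after scaling by the trimmed mean of M values (TMM). The libraries held between 26590705 and 53538925 counts in total, so 3 counts in each library of a DMSO group corresponded to 0.072 CPM in MEC1, 0.078 in JVM2 and 0.0724 in EHEB. With DMSO, 10, 9 and 10 of 10 B-cell identity markers (PAX5 and others) reached a mean of 1 CPM in MEC1, JVM2 and EHEB. Of 8 myeloid markers, 1, 3 and 2 did so with DMSO, led by ITGAM in all lines, and of 10 T-cell and NK-cell markers, 3, 2 and 5 did so, led by TRAC. The summed level of the myeloid list with DMSO was 6.67 to 8.28 CPM in MEC1 libraries, 19.6 to 22.6 CPM in those of JVM2 and 26.0 to 30.6 CPM in those of EHEB. It was 25.1 to 29.0, 50.2 to 51.6 and 61.1 to 70.4 CPM with fludarabine. With ibrutinib it was 27.5 to 31.5, 22.4 to 27.1 and 27.3 to 29.9 CPM, and with idelalisib 39.7 to 42.5, 46.2 to 49.8 and 27.5 to 31.8 CPM. The part of these markers in the results below was not tested. In bulk RNA, fewer cells that express a gene and less RNA per cell cannot be told apart.

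In the vehicle-treated lines, the antibody targets MS4A1, CD52 and FCER2 were abundant throughout. They differed between lines too, with FCER2 in MEC1 at 24.5% of JVM2 and MS4A1 in EHEB 2.72-fold above JVM2. CD38, CD200, LEF1, ZAP70 and CD24 had wider contrasts, though not between every pair of lines. CD5 was low, with means of 0.263, 0.377 and 1.06 CPM in MEC1, JVM2 and EHEB, and ROR1 was close to 0. A gene was called when edgeR's quasi-likelihood test gave an adjusted p (Benjamini-Hochberg over all genes tested) under 0.05. Of the 10 genes, 9 passed the filter on low counts in the fit of the 9 DMSO libraries, and ROR1 did not. Between MEC1 and JVM2, 3 were called higher and 4 lower in MEC1, against 30.1% and 33.7% of all 17394 genes tested. Between MEC1 and EHEB, 1 was called higher and 7 lower in MEC1, against a background of 31.6% higher and 35.8% lower. Between EHEB and JVM2, 6 were called higher and 2 lower in EHEB, where the background was 29.9% and 29.6%. LEF1 and ZAP70 passed the filter through MEC1 and EHEB, where their counts were high. They are among the genes called higher than in JVM2, so the counts and medians against JVM2 are given as a description. Over the genes tested, the median log2 difference was −0.53 for MEC1 over JVM2, −1.19 for MEC1 over EHEB and 0.86 for EHEB over JVM2, beside −0.02, −0.05 and 0 over all genes.

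**Figure D1:**
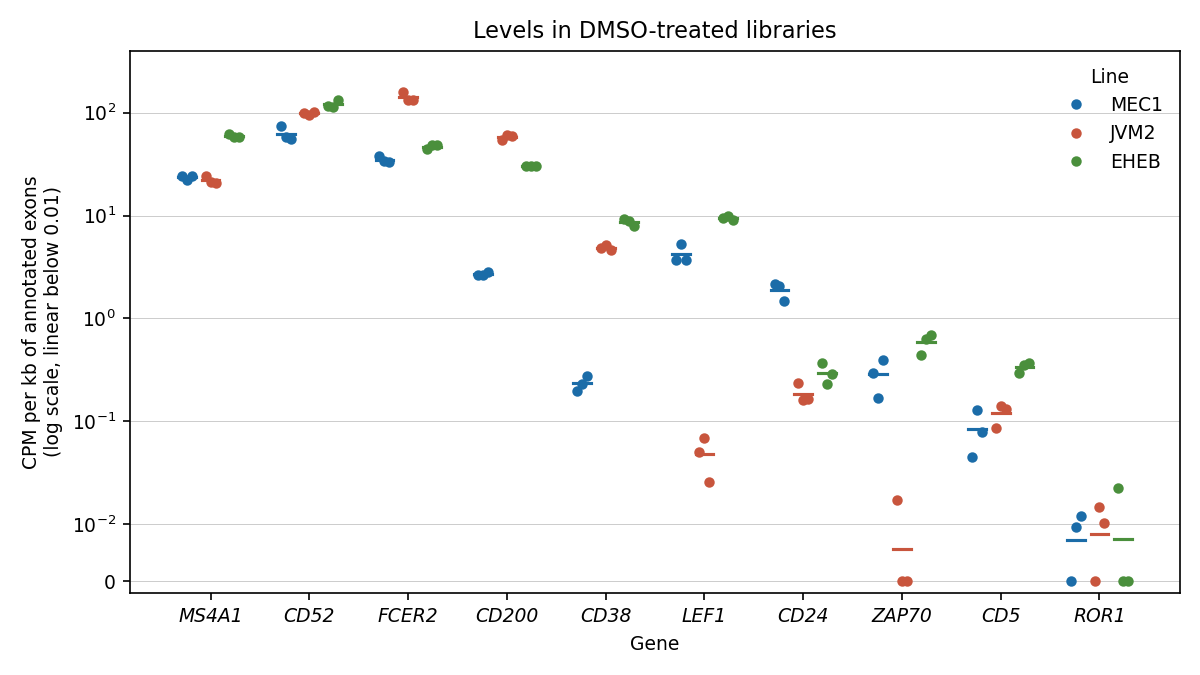
Level of each gene in the 9 DMSO libraries as CPM per kb of annotated exons, on a log axis that is linear below 0.01. Points are libraries, coloured by line, and bars are means of 3. LEF1 and ZAP70 stand apart in JVM2, CD38 and CD200 in MEC1, and ROR1 lies at 0 in at least 1 library of every line.

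Levels of different genes were compared only after division by the length of their annotated exons. In MEC1 the order of mean CPM per kb was CD52 (62.7), FCER2 (35.0), MS4A1 (23.7), LEF1 (4.25), CD200 (2.71), CD24 (1.91), ZAP70 (0.286), CD38 (0.235), CD5 (0.0842) and ROR1 (0.00721). In JVM2 FCER2 came first (141.7), followed by CD52 (98.8), CD200 (57.7), MS4A1 (22.0) and CD38 (4.85), and all others lay under 0.2. In EHEB CD52 led again (121), then MS4A1 (59.1), FCER2 (46.9), CD200 (30.2), LEF1 (9.47) and CD38 (8.69), and all others lay under 0.6. Neighbours in these orders whose libraries overlapped were ZAP70 and CD38 in MEC1, ROR1 and ZAP70 in JVM2, and LEF1 with CD38 and CD5 with CD24 in EHEB.

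CD38 showed the largest contrast in level among the antibody targets. It lies on chromosome 4 from 15778275 to 15853232 on the plus strand (GENCODE release 44 of GRCh38). The DMSO libraries held 1.36, 1.60 and 1.87 CPM in MEC1, 31.5, 33.1 and 35.1 CPM in JVM2, and 54.1, 60.6 and 64.2 CPM in EHEB. The 3 lines did not overlap, and EHEB was highest. The fitted level in MEC1 was 4.8% of that in JVM2 (log2 difference −4.38 ± 0.12, SE, adjusted p = 8.51e-09, edgeR) and 2.65% of that in EHEB (−5.24 ± 0.13, adjusted p = 3.49e-09, edgeR). EHEB exceeded JVM2 1.81-fold (adjusted p = 9.64e-05, edgeR).

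CD200, on the plus strand of chromosome 3 from 112332347 to 112362812, was likewise low in MEC1. A long non-coding RNA overlaps it on the same strand, which leaves the split of reads between them uncertain. Its DMSO libraries held 7.88, 7.97 and 8.49 CPM in MEC1, 161, 176 and 180 CPM in JVM2, and 90.1, 90.2 and 90.9 CPM in EHEB. The lines were fully separated, with JVM2 highest. MEC1 reached 4.66% of the level in JVM2 (log2 difference −4.42 ± 0.07, SE, adjusted p = 4.61e-10, edgeR) and 8.80% of that in EHEB (−3.51 ± 0.06, adjusted p = 1.18e-09, edgeR). EHEB lay at 53.0% of JVM2 (adjusted p = 1.36e-06, edgeR).

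FCER2 was most abundant in JVM2. This gene lies on the minus strand of chromosome 19 from 7688758 to 7702146. Its DMSO libraries held 80.5 to 93.0 CPM in MEC1, 326 to 390 CPM in JVM2 and 109 to 118 CPM in EHEB, without overlap. MEC1 was at 24.5% of JVM2 (log2 difference −2.03 ± 0.09, SE, adjusted p = 1.17e-07, edgeR) and at 73.1% of EHEB (−0.45 ± 0.09, adjusted p = 0.00158, edgeR).

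MS4A1, which lies on chromosome 11 from 60455846 to 60470752 on the plus strand, was highest in EHEB. The DMSO libraries held 106, 116 and 116.8 CPM in MEC1, 99.2, 100 and 115 CPM in JVM2, and 274, 276 and 296 CPM in EHEB. EHEB exceeded MEC1 and JVM2 without overlap, and the other two lines overlapped. MEC1 lay at 39.2% of EHEB (log2 difference −1.35 ± 0.07, SE, adjusted p = 3.93e-07, edgeR), and MEC1 and JVM2 did not pass the test (0.09 ± 0.07, adjusted p = 0.309). With library size scaling in place of TMM, the difference between MEC1 and JVM2 was 0.23 and passed the threshold (adjusted p = 0.0279, edgeR).

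CD52 differed least among the antibody targets. It lies on the plus strand of chromosome 1 from 26317958 to 26320523 and overlaps UBXN11 on the other strand. Because the strand setting of the counting is not given in the sources used here, reads of these overlapping genes cannot be told apart. The DMSO libraries held 52.1, 54.7 and 68.8 CPM in MEC1, 89.6, 92.1 and 95.2 CPM in JVM2, and 106, 108 and 125 CPM in EHEB, again without overlap. MEC1 lay at 62.9% of JVM2 (adjusted p = 0.000626, edgeR) and 50.9% of EHEB (adjusted p = 5.09e-05, edgeR). EHEB exceeded JVM2 1.24-fold (log2 difference 0.31 ± 0.11, adjusted p = 0.0395, edgeR), a call that was lost without any 1 of 5 DMSO libraries, EHEB replicates 1 and 3 and JVM2 replicates 1, 2 and 3 (0.24 to 0.34, adjusted p 0.0557 to 0.116).

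CD24, encoded on the minus strand of chromosome 6 from 106969831 to 106975627, had its highest level in MEC1. Its DMSO libraries held 4.61, 6.41 and 6.68 CPM in MEC1, 0.494, 0.508 and 0.725 CPM in JVM2, and 0.713, 0.903 and 1.13 CPM in EHEB. MEC1 exceeded JVM2 10.2-fold (log2 difference 3.35 ± 0.28, SE, adjusted p = 6.14e-06, edgeR) and EHEB 6.30-fold (2.66 ± 0.26, adjusted p = 1.91e-05, edgeR). JVM2 and EHEB overlapped and did not pass the test (0.69 ± 0.28 for EHEB over JVM2, adjusted p = 0.0572), although they did without EHEB replicate 2 or without JVM2 replicate 1 (0.85 and 0.88, adjusted p = 0.0376 and 0.0368). CD24 has near-identical pseudogenes that are listed separately in the table, so that its level is uncertain.

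LEF1 and ZAP70 were expressed in MEC1 and EHEB and almost absent from JVM2. LEF1 (chromosome 4, 108047545 to 108168956, minus strand) held 733 to 1335 counts in the DMSO libraries of MEC1, 2016 to 2158 in EHEB and 6, 9 and 15 in JVM2. In CPM these were 19.9, 20.0 and 28.4 in MEC1, 48.7, 50.8 and 52.9 in EHEB, and 0.139, 0.272 and 0.371 in JVM2. MEC1 exceeded JVM2 86.7-fold (log2 difference 6.44 ± 0.27, SE, adjusted p = 7.08e-08, edgeR), EHEB exceeded JVM2 197-fold (7.62 ± 0.27, adjusted p = 5.81e-08, edgeR), and MEC1 was at 44% of EHEB (adjusted p = 0.000319, edgeR). LEF1 passed the filter on low counts in the DMSO fit through MEC1 and EHEB, so its contrast with JVM2 is given as a description. The antisense gene LEF1-AS1 overlaps LEF1, and its reads cannot be told apart from those of LEF1 without strand.

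For ZAP70 (chromosome 2, 97713576 to 97739862, plus strand) the DMSO libraries held 42, 67 and 77 counts in MEC1, 94, 138 and 163 in EHEB, and 0, 0 and 3 in JVM2. Summed over libraries and scaled, MEC1 exceeded JVM2 57.4-fold (95% exact binomial interval 19.3 to 280.8) and EHEB exceeded JVM2 123-fold (41.9 to 601.3). These intervals cover counting error only. The tests gave adjusted p = 0.000203 and 7.41e-05 (edgeR). ZAP70 entered the DMSO fit through the MEC1 and EHEB libraries, in which its counts were high. Its contrast with JVM2 is therefore given as a description. MEC1 held 0.895, 1.58 and 2.09 CPM and EHEB 2.37, 3.39 and 3.68 CPM, without overlap, but their log2 difference of −1.08 ± 0.49 did not pass (adjusted p = 0.0805, edgeR). It passed in 4 other fits, namely DESeq2 (adjusted p = 0.0212), limma-voom (0.0115), the joint fit of all libraries (0.0324) and the fit of only these lines (0.0292), and with counts halved (0.0351).

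CD5 (chromosome 11, 61102489 to 61127852, plus strand) held 6, 9 and 19 counts in the DMSO libraries of MEC1, 9, 18 and 18 in JVM2, and 37, 45 and 51 in EHEB. The range in EHEB was 0.932 to 1.15 CPM, above the 0.141 to 0.445 CPM of the other lines. EHEB exceeded JVM2 2.82-fold (log2 difference 1.5 ± 0.41, SE, adjusted p = 0.0112, edgeR), and MEC1 was at 24.6% of EHEB (−2.02 ± 0.42, adjusted p = 0.00214, edgeR). MEC1 and JVM2 did not pass the test (−0.53 ± 0.43, adjusted p = 0.312).

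ROR1 (chromosome 1, 63774017 to 64181498, plus strand) was not expressed above the depth of these libraries in most samples. Its counts in the DMSO libraries were 0, 3 and 3 in MEC1, 0, 3 and 4 in JVM2, and 0, 0 and 6 in EHEB. Over all 36 libraries they ran from 0 to 27. No difference between the lines was detectable at this depth.

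Sequence before the start is shown for CD38, which was called with every drug in every line, for FCER2, which fludarabine lowered in every line, and for ZAP70, which was close to 0 in JVM2 alone, a choice made after their values were seen. Upstream windows of 250 bases (RefSeq, GRCh38) were found for 8 of the 10 genes, and bases that GENCODE places in an exon are not printed. Capitals mark TGGGAA, the core bound by RBPJ, CTTTGA, the core bound by TCF and LEF factors, and GAGGAA, the core bound by PU.1, on either strand, and the octamer ATGCAAAT was searched too. The CD38 stretch is chr4:15778078-15778274 on the plus strand, that of FCER2 is chr19:7702147-7702381 on the minus strand and that of ZAP70 is chr2:97713326-97713575 on the plus strand, all written 5′ to 3′.
CD38: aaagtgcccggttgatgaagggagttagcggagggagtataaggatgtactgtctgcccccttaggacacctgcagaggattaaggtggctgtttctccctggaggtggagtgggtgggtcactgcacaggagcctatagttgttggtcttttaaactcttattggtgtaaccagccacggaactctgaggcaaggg
FCER2: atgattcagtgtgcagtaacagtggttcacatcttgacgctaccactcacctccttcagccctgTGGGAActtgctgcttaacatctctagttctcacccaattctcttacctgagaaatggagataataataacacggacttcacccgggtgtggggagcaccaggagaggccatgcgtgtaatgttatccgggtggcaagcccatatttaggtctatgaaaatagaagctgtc
ZAP70: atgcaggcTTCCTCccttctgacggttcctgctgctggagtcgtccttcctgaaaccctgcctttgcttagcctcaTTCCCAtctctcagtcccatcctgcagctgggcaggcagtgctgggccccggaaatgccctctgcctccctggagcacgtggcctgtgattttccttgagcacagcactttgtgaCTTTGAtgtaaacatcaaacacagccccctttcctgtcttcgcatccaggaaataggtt
No motif lay in the printed stretch of CD38, and a TGGGAA lay 45 bases before its RefSeq start, within bases not printed. FCER2 held TGGGAA within the run printed. ZAP70 held TGGGAA and GAGGAA on the minus strand and CTTTGA on the plus strand. Among all 35116 RefSeq windows, 20.8% held TGGGAA, 11.2% CTTTGA, 23.6% GAGGAA and 1.63% ATGCAAAT. Counting every window of a gene, TGGGAA occurred in 5 of the 8 genes, GAGGAA in 4 and CTTTGA in 2, and these matches describe letters only.

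For some surface antigens the direction of the called changes depended on the line. These were CD38 and CD200 with every drug, CD52 with fludarabine and idelalisib, and MS4A1 with fludarabine. FCER2 was called lower with fludarabine in every line, and CD24 and CD5 were not called lower with any drug. In MEC1, 9 of the 10 genes were tested. Fludarabine raised 6 and lowered 1 of them, against a background of 21.2% of 17516 genes called higher and 22.7% lower. Ibrutinib raised 4 and lowered 0 (background 23.7% and 23.9%), and idelalisib raised 4 and lowered 0 (27.6% and 27.4%). In JVM2, where ROR1 and ZAP70 did not pass the filter, fludarabine raised 2 and lowered 4 of 8 (23.9% and 23.3% of all genes tested). Ibrutinib raised 3 and lowered 2 (14.5% and 15%), as did idelalisib (21.6% and 22.6%). In EHEB all 10 were tested, ROR1 through fludarabine and idelalisib libraries. Fludarabine raised 2 and lowered 4 (18.4% and 19.2%), ibrutinib raised 4 and lowered 2 (8.5% and 11.2%), and idelalisib raised 5 and lowered 1 (15.1% and 18.2%). Of the 49 calls among 81 tests, 36 held in every alternative under which the gene was tested and with each library left out.

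The median log2 fold change of the genes tested with fludarabine, ibrutinib and idelalisib was 0.50, 0.26 and 0.19 in MEC1, beside 0.06, 0.06 and 0.08 over all genes. In JVM2 it was −0.15, 0.14 and 0.40, beside 0.06, 0 and 0.03. In EHEB it was −0.14, 0.14 and 0.69, beside 0.02, 0.01 and 0.01. Comparisons with DMSO within a line share the same 3 DMSO libraries.

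**Figure D2:**
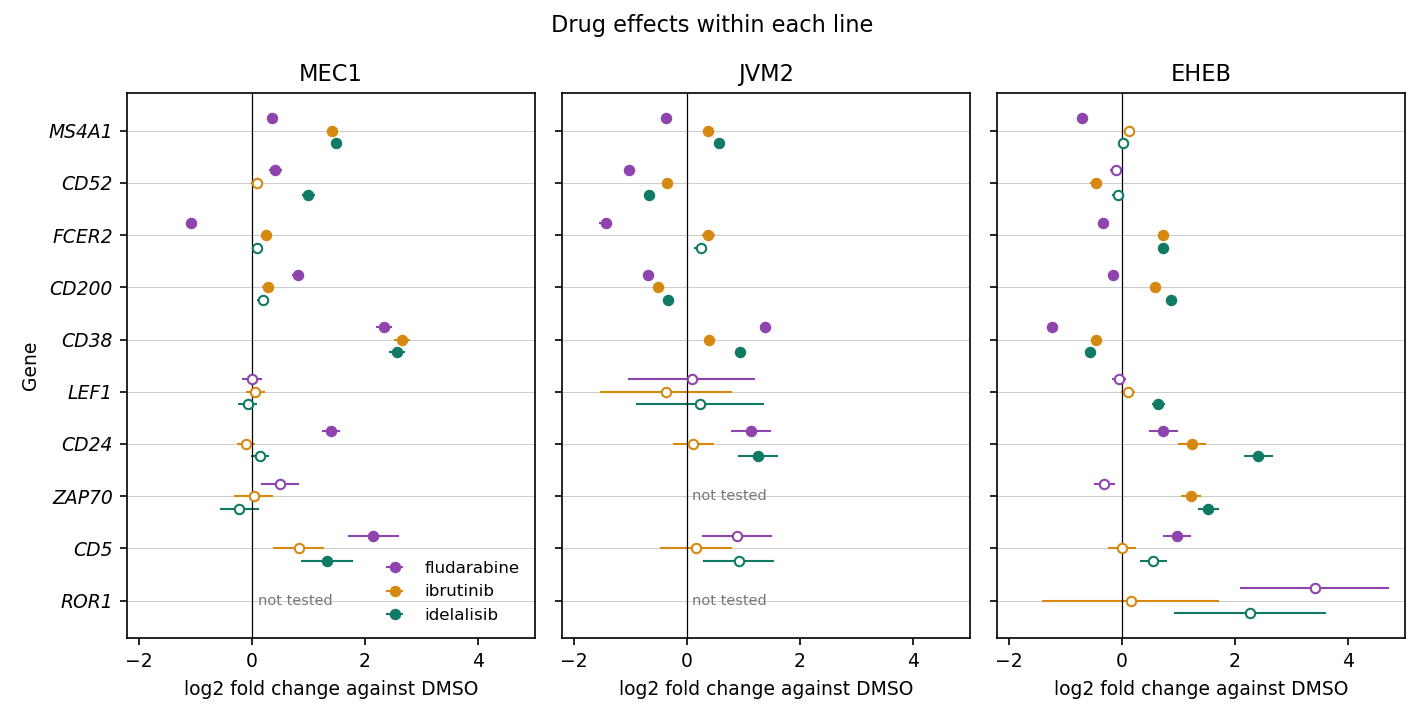
Fitted log2 fold change of each gene against DMSO in each line, with SE as error bars. Filled points were called at an adjusted p under 0.05 and open points were not. CD38 lies to the right of 0 with every drug in MEC1 and JVM2 and to the left with every drug in EHEB.

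CD38 was the only gene of the set called in all 9 comparisons with DMSO. In MEC1 its libraries rose from 1.36 to 1.87 CPM with DMSO to 7.60, 8.51 and 8.90 CPM with fludarabine, 8.71, 9.48 and 11.2 CPM with ibrutinib, and 8.64, 9.03 and 9.61 CPM with idelalisib. No treated library overlapped the DMSO libraries. The increases were 5.07-fold (log2 2.34 ± 0.14, SE, adjusted p = 3.83e-07, edgeR), 6.26-fold (2.65 ± 0.14, adjusted p = 1.38e-07) and 5.90-fold (2.56 ± 0.14, adjusted p = 1.03e-07). These levels remained below those of the vehicle-treated JVM2 and EHEB libraries.

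CD38 also rose in JVM2, from 31.5 to 35.1 CPM with DMSO to 82.7, 86.3 and 90.3 CPM with fludarabine, 42.9, 43.1 and 46 CPM with ibrutinib, and 61.2, 64.3 and 65.8 CPM with idelalisib. The 4 groups did not overlap, and fludarabine gave the highest level. The increases were 2.62-fold (log2 1.39 ± 0.06, SE, adjusted p = 1.61e-08, edgeR), 1.31-fold (0.39 ± 0.06, adjusted p = 0.000616) and 1.91-fold (0.93 ± 0.06, adjusted p = 5.47e-07).

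In EHEB, by contrast, CD38 fell. The DMSO libraries held 54.1 to 64.2 CPM, the fludarabine libraries 25.1, 25.2 and 25.4 CPM, the ibrutinib libraries 42.6, 43.7 and 44.4 CPM, and the idelalisib libraries 39, 41.3 and 41.8 CPM. All treated libraries lay below all DMSO libraries. The levels reached 42.6% of DMSO with fludarabine (log2 −1.23 ± 0.07, SE, adjusted p = 1.79e-07, edgeR), 73.0% with ibrutinib (−0.45 ± 0.07, adjusted p = 0.000847) and 67.9% with idelalisib (−0.56 ± 0.07, adjusted p = 8.47e-05). All of these calls and directions held in every alternative.

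**Figure D3:**
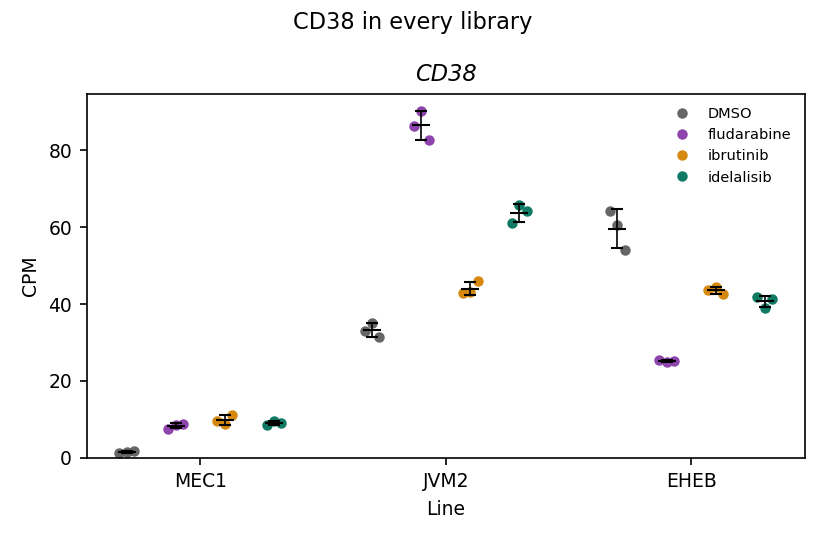
CD38 in CPM in all 36 libraries, by line and treatment. Points are libraries and black marks are means ± SD of 3. Treated libraries lie above DMSO in MEC1 and JVM2 and below DMSO in EHEB.

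MS4A1, the rituximab target, rose most in MEC1 with the kinase inhibitors. There the libraries held 106 to 116.8 CPM with DMSO, 143.6, 147 and 152 CPM with fludarabine, 276, 284 and 311 CPM with ibrutinib, and 266, 315 and 329 CPM with idelalisib. Every treated library lay above every DMSO library. The increases were 1.28-fold with fludarabine (log2 0.36 ± 0.08, SE, adjusted p = 0.00377, edgeR), 2.65-fold with ibrutinib (1.41 ± 0.08, adjusted p = 2.52e-07) and 2.81-fold with idelalisib (1.49 ± 0.08, adjusted p = 1.01e-07). The inhibitor-treated MEC1 libraries thus reached the range of the vehicle-treated EHEB libraries.

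MS4A1 moved less in the other lines. In JVM2 the libraries held 99.2 to 115 CPM with DMSO, 129, 132.8 and 150 CPM with ibrutinib (1.3-fold, log2 0.38 ± 0.07, adjusted p = 0.00263, edgeR) and 151, 154 and 162 CPM with idelalisib (1.48-fold, 0.56 ± 0.07, adjusted p = 9.60e-05). Fludarabine lowered it in JVM2 to 79.3, 80.4 and 81.2 CPM (77.1% of DMSO, −0.38 ± 0.07, adjusted p = 0.00137, edgeR), a call that was lost with library size scaling (−0.18, adjusted p = 0.113). Fludarabine also lowered it in EHEB, from 274 to 296 CPM to 167, 168 and 180 CPM (61.3% of DMSO, −0.71 ± 0.05, adjusted p = 6.31e-07, edgeR). The kinase inhibitors did not pass the test in EHEB, with log2 fold changes of 0.13 ± 0.05 for ibrutinib (adjusted p = 0.0742) and 0.03 ± 0.05 for idelalisib (0.723). The ibrutinib value passed with library size scaling (0.23, adjusted p = 0.00652, edgeR), with the filter at a mean of 5 CPM (0.16, adjusted p = 0.0199) and without EHEB DMSO replicate 1 (0.17, adjusted p = 0.045).

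FCER2 fell with fludarabine in every line. In MEC1 it went from 80.5 to 93.0 CPM with DMSO to 39.3, 42.3 and 43.8 CPM (47.7% of DMSO, log2 −1.07 ± 0.08, SE, adjusted p = 1.28e-06, edgeR). In JVM2 it went from 326 to 390 CPM to 109.75, 132.63 and 142.03 CPM (37.1%, −1.43 ± 0.12, adjusted p = 2.08e-06), and in EHEB from 109 to 118 CPM to 88.1, 90.5 and 94.2 CPM (79.7%, −0.33 ± 0.08, adjusted p = 0.00655). Fludarabine and DMSO libraries did not overlap in any line. B-cell identity markers moved with it: fludarabine lowered 9, 8 and 9 of the 10 markers in MEC1, JVM2 and EHEB and raised 0, with a median log2 fold change of −0.51, −0.80 and −0.61. Of all genes tested, 22.7%, 23.3% and 19.2% were called lower there and 21.2%, 23.9% and 18.4% higher. MS4A1 fell with fludarabine in JVM2 and EHEB but was called higher in MEC1. Whether the decrease of FCER2, or that of MS4A1 in JVM2 and EHEB, is part of this movement was not tested.

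The kinase inhibitors raised FCER2 most clearly in EHEB, to 176, 182 and 211 CPM with ibrutinib (1.65-fold, log2 0.72 ± 0.08, adjusted p = 0.000106, edgeR) and to 176, 193 and 206 CPM with idelalisib (1.66-fold, 0.73 ± 0.08, adjusted p = 3.63e-05). In JVM2 the ibrutinib libraries held 419, 452 and 494 CPM (1.3-fold, 0.38 ± 0.11, adjusted p = 0.0277), a call lost without any 1 of 4 libraries, DMSO replicates 2 and 3 and ibrutinib replicates 1 and 3 (0.32 to 0.40, adjusted p 0.0537 to 0.0984). In MEC1 the ibrutinib libraries held 88.5, 104 and 106 CPM and overlapped DMSO (1.19-fold, 0.26 ± 0.08, adjusted p = 0.0163), and this call was lost without DMSO replicate 2 or 3 or ibrutinib replicate 1 or 3 (0.20 to 0.24, adjusted p 0.0537 to 0.0857), without the filter on low counts (0.21, adjusted p = 0.0819) and in the joint fit (0.21, adjusted p = 0.0916). Idelalisib did not pass in MEC1 (0.08 ± 0.08, adjusted p = 0.364) or JVM2 (0.25 ± 0.11, adjusted p = 0.102). The MEC1 value was called higher with the filter at a mean of 5 CPM (0.21, adjusted p = 0.0185). The JVM2 value was called higher with that filter (0.29, adjusted p = 0.0446), with library size scaling (0.34, adjusted p = 0.025), in the joint fit (0.25, adjusted p = 0.0479) and without DMSO replicate 1 (0.34, adjusted p = 0.0443).

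CD52 rose in MEC1 and fell in JVM2. In MEC1 the libraries held 52.1 to 68.8 CPM with DMSO, 72.2, 81.1 and 85.9 CPM with fludarabine, and 104, 106 and 127 CPM with idelalisib. Idelalisib raised it 2.0-fold (log2 1.00 ± 0.11, SE, adjusted p = 1.88e-05, edgeR), and the 1.33-fold increase with fludarabine (0.41 ± 0.11, adjusted p = 0.0112) was lost without DMSO replicate 3 (0.33, adjusted p = 0.0518). Ibrutinib libraries, at 58.5 to 63.2 CPM, overlapped DMSO (0.09 ± 0.11, adjusted p = 0.540). In JVM2 the level fell from 89.6 to 95.2 CPM to 40.6, 45.3 and 50.0 CPM with fludarabine (49.5% of DMSO, −1.02 ± 0.09, adjusted p = 3.08e-06), 69.5, 71.2 and 77.7 CPM with ibrutinib (78.3%, −0.35 ± 0.09, adjusted p = 0.00969) and 53.3, 57.1 and 64.0 CPM with idelalisib (62.8%, −0.67 ± 0.09, adjusted p = 9.07e-05). No treated JVM2 library reached the lowest DMSO library.

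CD52 in EHEB was lowered by ibrutinib alone among the calls, from 106 to 125 CPM to 74.8, 77.4 and 96.2 CPM (73.3% of DMSO, log2 −0.45 ± 0.11, adjusted p = 0.0127, edgeR). This call was lost without DMSO replicate 3 or ibrutinib replicate 1 or 2 (−0.40 to −0.36, adjusted p 0.0527 to 0.0566). Fludarabine (−0.11 ± 0.11, adjusted p = 0.453) and idelalisib (−0.06 ± 0.11, adjusted p = 0.705) did not pass. CD52 and CD24 need a GPI anchor, and the 27 genes of its synthesis showed no common direction. In MEC1, of 26 tested, 6, 6 and 9 rose and 4, 6 and 4 fell with fludarabine, ibrutinib and idelalisib, in JVM2 9, 1 and 4 rose and 3, 5 and 7 fell, and in EHEB 3, 3 and 4 rose and 3, 3 and 6 fell. Of all genes tested, 21.2%, 23.7% and 27.6% were called higher and 22.7%, 23.9% and 27.4% lower in MEC1 with these drugs. In JVM2 23.9%, 14.5% and 21.6% were higher and 23.3%, 15% and 22.6% lower. In EHEB 18.4%, 8.5% and 15.1% were higher and 19.2%, 11.2% and 18.2% lower. The largest changes were in PGAP1, which removes an acyl chain from the anchor (log2 2.28 ± 0.25 with fludarabine in EHEB, adjusted p = 3.00e-05, edgeR), PIGW (2.16 ± 0.30 with ibrutinib in MEC1, adjusted p = 0.00012) and PIGM, a mannosyltransferase (1.44 ± 0.08 with fludarabine in MEC1, adjusted p = 1.89e-07).

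CD200 rose with the kinase inhibitors in EHEB and fell with every drug in JVM2. In EHEB the libraries held 90.1 to 90.9 CPM with DMSO, 131, 134.7 and 140 CPM with ibrutinib (1.49-fold, log2 0.58 ± 0.05, SE, adjusted p = 2.94e-05, edgeR) and 166, 167 and 168 CPM with idelalisib (1.84-fold, 0.88 ± 0.05, adjusted p = 4.22e-07). These 3 groups did not overlap. In JVM2 the libraries fell from 161 to 180 CPM to 90.2, 111 and 116 CPM with fludarabine (61.8% of DMSO, −0.69 ± 0.09, adjusted p = 5.56e-05), 113, 124 and 127 CPM with ibrutinib (69.8%, −0.52 ± 0.09, adjusted p = 0.00111) and 133.97, 137.93 and 142.55 CPM with idelalisib (79.8%, −0.33 ± 0.09, adjusted p = 0.00975). All treated JVM2 libraries lay below all DMSO libraries.

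In MEC1, where CD200 was low, fludarabine raised it from 7.88 to 8.49 CPM to 13.6, 13.8 and 16.5 CPM (1.76-fold, log2 0.82 ± 0.11, adjusted p = 0.000116, edgeR). The ibrutinib libraries held 8.22, 10.2 and 10.4 CPM (0.29 ± 0.11, adjusted p = 0.04998). That call lay at the threshold and was lost in DESeq2 (0.28, adjusted p = 0.0524), limma-voom (0.29, adjusted p = 0.0538), without the filter on low counts (0.24, adjusted p = 0.157), in the fit of only these groups (0.30, adjusted p = 0.0583) and without DMSO replicate 1, 2 or 3 or ibrutinib replicate 1 or 3 (0.22 to 0.32, adjusted p 0.0678 to 0.186). Idelalisib (0.19 ± 0.11, adjusted p = 0.153, edgeR) passed only with the filter at a mean of 5 CPM (0.32, adjusted p = 0.0228). In EHEB the decrease with fludarabine was small (77.0, 77.4 and 86.1 CPM, −0.16 ± 0.05, adjusted p = 0.0268). It was lost with library size scaling (−0.05, adjusted p = 0.445), in the joint fit (−0.17, adjusted p = 0.124), in the fit of only these groups (−0.16, adjusted p = 0.0752) and without DMSO replicate 2 or fludarabine replicate 1 or 3 (−0.17 to −0.14, adjusted p 0.0627 to 0.095).

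**Figure D4:**
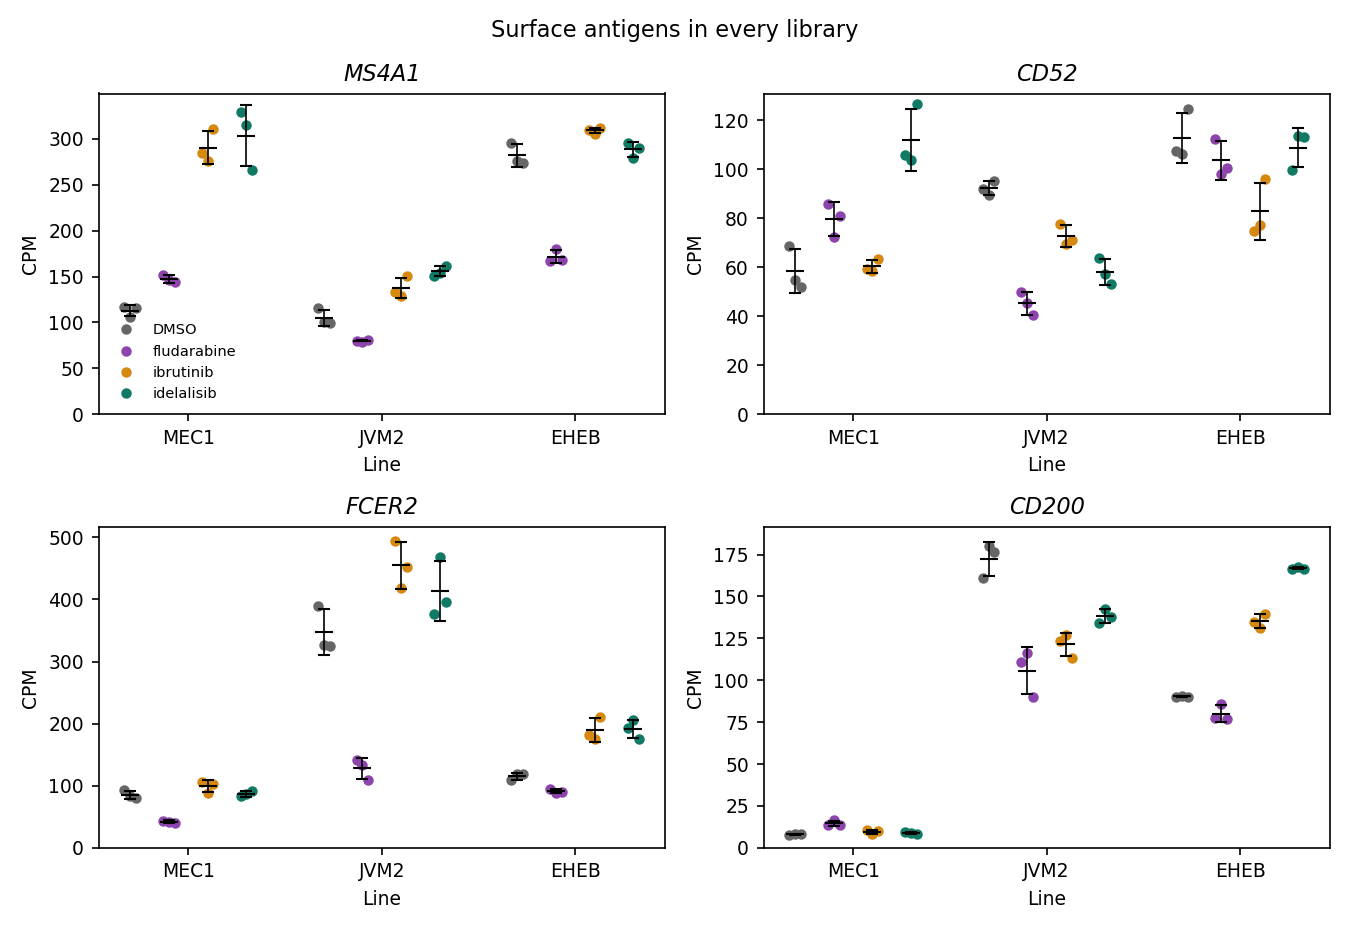
MS4A1, CD52, FCER2 and CD200 in CPM in all 36 libraries, by line and treatment. Points are libraries and black marks are means ± SD of 3. FCER2 is lowest with fludarabine in each line, MS4A1 rises in MEC1 with ibrutinib (2.65-fold) and idelalisib (2.81-fold), and CD200 rises in EHEB with the kinase inhibitors and falls in JVM2 with every drug.

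CD24 was not called lower with any drug. In MEC1 fludarabine raised it from 4.61 to 6.68 CPM to 14.0, 16.7 and 16.9 CPM (2.62-fold, log2 1.39 ± 0.16, SE, adjusted p = 3.47e-05, edgeR), whereas ibrutinib (−0.10 ± 0.16, adjusted p = 0.632) and idelalisib (0.14 ± 0.16, adjusted p = 0.461) did not pass. In EHEB idelalisib raised it from 0.713 to 1.13 CPM to 4.5, 4.76 and 5.53 CPM (5.33-fold, 2.42 ± 0.26, adjusted p = 3.11e-05), and ibrutinib to 1.79, 1.95 and 2.76 CPM (2.36-fold, 1.24 ± 0.25, adjusted p = 0.00566). These groups did not overlap, and the calls held in every alternative that tested the gene, which the filter at a mean of 5 CPM did not.

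The remaining CD24 calls were less stable. The fludarabine libraries of EHEB held 1.13, 1.65 and 1.78 CPM, of which the lowest met the highest DMSO library (log2 0.74 ± 0.26, adjusted p = 0.0426, edgeR). This call was lost in limma-voom (0.71, adjusted p = 0.0931), without the filter on low counts (0.70, adjusted p = 0.0808), in the fit of only these groups (0.74, adjusted p = 0.0945) and without DMSO replicate 2 or 3 or fludarabine replicate 1 or 2 (0.58 to 0.72, adjusted p 0.0984 to 0.149). In JVM2, with 10 to 69 counts per library, CD24 was called higher with fludarabine (1.09 to 1.36 CPM against 0.494 to 0.725, 1.14 ± 0.36, adjusted p = 0.0217) and idelalisib (1.05 to 1.69 CPM, 1.26 ± 0.36, adjusted p = 0.0142). The fludarabine call was lost without DMSO replicate 2 or 3 or fludarabine replicate 1 or 2 (1.04 to 1.10, adjusted p 0.0537 to 0.0721), and the idelalisib call without DMSO replicate 2 or 3 or idelalisib replicate 1 (1.09 to 1.17, adjusted p 0.0506 to 0.0529). Ibrutinib did not pass in JVM2 (0.11 ± 0.36, adjusted p = 0.861).

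ZAP70 rose in EHEB with the kinase inhibitors. Its libraries held 2.37, 3.39 and 3.68 CPM with DMSO, 6.45, 7.21 and 8.47 CPM with ibrutinib, and 7.95, 9.54 and 9.99 CPM with idelalisib. Neither treated group overlapped DMSO. The increases were 2.34-fold (log2 1.23 ± 0.18, SE, adjusted p = 0.000837, edgeR) and 2.89-fold (1.53 ± 0.18, adjusted p = 7.54e-05), and they held in every alternative. Fludarabine libraries in EHEB, at 2.31 to 2.83 CPM, overlapped DMSO (−0.31 ± 0.19, adjusted p = 0.226) but passed as lower without DMSO replicate 1 (−0.48, adjusted p = 0.0489).

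ZAP70 did not pass with any drug in MEC1, where the log2 fold changes were 0.50 ± 0.34 (fludarabine), 0.04 ± 0.34 (ibrutinib) and −0.22 ± 0.35 (idelalisib), with adjusted p of 0.267, 0.944 and 0.615 (edgeR). In JVM2 its counts ran from 0 to 6 over the 12 libraries, and all 3 fludarabine libraries were at 0, which allows up to 0.0229 CPM over the group. T-cell and NK-cell markers mostly fell in EHEB with the kinase inhibitors, while ZAP70 rose. Of 7 tested, ibrutinib raised 0 and lowered 5 (background 8.5% and 11.2%), and idelalisib raised 1 and lowered 5 (15.1% and 18.2%). Idelalisib lowered CD3E, a subunit of the T-cell receptor complex (log2 −1.32 ± 0.29, adjusted p = 0.00435, edgeR). The summed level of the T-cell and NK-cell list was 76.8 to 82.3 CPM with DMSO, 40.9 to 45.5 CPM with ibrutinib and 36.8 to 43.6 CPM with idelalisib.

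LEF1 was called in 1 of its 9 comparisons. In EHEB idelalisib raised it from 48.7, 50.8 and 52.9 CPM to 75.3, 80.8 and 83.4 CPM (1.56-fold, log2 0.64 ± 0.12, SE, adjusted p = 0.00157, edgeR). The groups did not overlap, although the call was lost in the joint fit of all libraries (0.65, adjusted p = 0.116). Ibrutinib libraries held 52.4 to 57.1 CPM (0.11 ± 0.12, adjusted p = 0.564) and fludarabine libraries 38 to 55.9 CPM (−0.05 ± 0.12, adjusted p = 0.796). In MEC1 all libraries lay between 19.0 and 28.5 CPM, with log2 fold changes from −0.07 to 0.06. In JVM2 the count never exceeded 29, and a change was not detectable at this depth.

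The Wnt and LEF1 pathway showed mixed changes. Of its 25 genes, 23 were tested in MEC1 and 24 in each of the other lines. In MEC1 7, 5 and 5 rose and 4, 8 and 11 fell with fludarabine, ibrutinib and idelalisib. In JVM2 3, 1 and 4 rose and 7, 4 and 6 fell, and in EHEB 5, 3 and 7 rose and 7, 2 and 2 fell. Of all genes tested, 21.2%, 23.7% and 27.6% were called higher and 22.7%, 23.9% and 27.4% lower in MEC1 with these drugs. In JVM2 23.9%, 14.5% and 21.6% were higher and 23.3%, 15% and 22.6% lower. In EHEB 18.4%, 8.5% and 15.1% were higher and 19.2%, 11.2% and 18.2% lower. The list's median log2 fold change lay between −0.55 (idelalisib in MEC1) and 0.25 (idelalisib in EHEB). Fludarabine lowered WNT10A, a Wnt ligand, in JVM2 (log2 −2.16 ± 0.15, adjusted p = 7.72e-07, edgeR) and APC, a scaffold of the beta-catenin destruction complex, in EHEB (−1.73 ± 0.41, adjusted p = 0.00654), and ibrutinib raised TLE1, a corepressor of TCF and LEF factors, in MEC1 (2.1 ± 0.18, adjusted p = 3.27e-06).

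CD5 stayed under 2.3 CPM in all libraries, and the highest count was 83. In MEC1 it rose from 0.141, 0.244 and 0.405 CPM with DMSO to 0.745, 1.40 and 1.49 CPM with fludarabine (4.44-fold, log2 2.15 ± 0.46, SE, adjusted p = 0.00265, edgeR), without overlap. The increase with idelalisib to 0.517, 0.571 and 0.845 CPM (1.33 ± 0.46, adjusted p = 0.0276) was lost without DMSO replicate 1 or 3 or idelalisib replicate 1 (1.03 to 1.27, adjusted p 0.0719 to 0.0992). In EHEB fludarabine raised it from 0.932 to 1.15 CPM to 1.72, 2.23 and 2.26 CPM (1.96-fold, 0.97 ± 0.25, adjusted p = 0.00881), a call lost in the joint fit (0.96, adjusted p = 0.0971). Ibrutinib did not pass in MEC1 (0.83 ± 0.46, adjusted p = 0.159), no drug passed in JVM2, where log2 values were 0.16 to 0.91, and neither kinase inhibitor passed in EHEB.

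ROR1 remained at 0 to 15 counts in MEC1 and 0 to 6 in JVM2. The fludarabine and ibrutinib libraries of JVM2 were all at 0, which allows up to 0.0229 and 0.0245 CPM over each group. In EHEB the counts were 0, 0 and 6 with DMSO, 6, 23 and 27 with fludarabine, 0, 0 and 6 with ibrutinib, and 4, 11 and 11 with idelalisib. The test did not pass with fludarabine (log2 3.41 ± 1.32, adjusted p = 0.0648, edgeR). It passed in limma-voom (4.26, adjusted p = 0.0207) and without EHEB DMSO replicate 1 (7.35, adjusted p = 0.0239, edgeR). Since ROR1 entered the EHEB fit through the treated libraries in which its counts were high, no result is drawn from these tests. Its counts are given as a description. The antisense gene ROR1-AS1 overlaps ROR1.

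**Figure D5:**
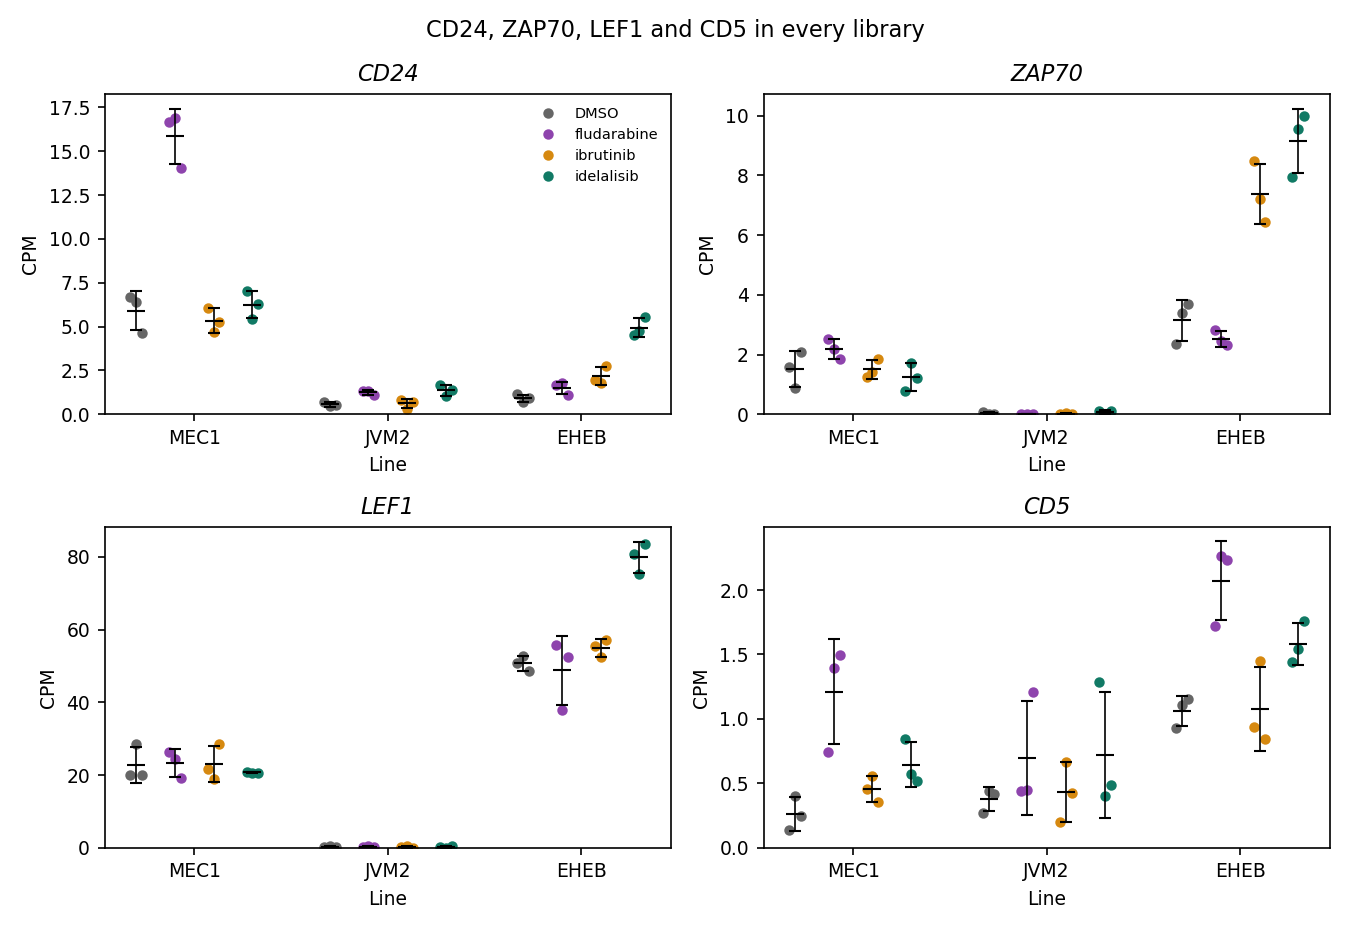
CD24, ZAP70, LEF1 and CD5 in CPM in all 36 libraries, by line and treatment. Points are libraries and black marks are means ± SD of 3. CD24 is highest in MEC1 with fludarabine, ZAP70 and LEF1 are highest in EHEB with idelalisib and near 0 in JVM2, and CD5 stays under 2.3 CPM.

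Idelalisib and ibrutinib were compared directly within each line. In MEC1, 1 of 9 genes was called higher with idelalisib and 0 lower, against 6.01% and 9.37% of all genes tested. It was CD52, at 104 to 127 CPM with idelalisib and 58.5 to 63.2 CPM with ibrutinib (1.88-fold, log2 0.91 ± 0.11, SE, adjusted p = 0.00109, edgeR). MS4A1, which both inhibitors raised in MEC1, differed by 0.08 ± 0.08 (adjusted p = 0.601, 95% interval −0.10 to 0.26), and CD38 by −0.09 ± 0.13 (adjusted p = 0.747, 95% interval −0.38 to 0.21). FCER2 was lower with idelalisib under library size scaling (−0.34, adjusted p = 0.00791, edgeR) but not under TMM (−0.17 ± 0.08, adjusted p = 0.168).

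In JVM2, 2 of 8 genes were called higher and 1 lower with idelalisib (background 8.21% and 10.5%). CD38 was 1.45-fold higher (log2 0.54 ± 0.06, adjusted p = 0.000127, edgeR). CD24 was called higher (1.14 ± 0.35, adjusted p = 0.0447), which was lost without the filter on low counts (1.14, adjusted p = 0.0688), in the fit of only these groups (1.14, adjusted p = 0.0989) and without ibrutinib replicate 2 or 3 or idelalisib replicate 1 or 3 (0.83 to 1.26, adjusted p 0.0697 to 0.139). CD52 was called lower (−0.32 ± 0.09, adjusted p = 0.0252), which was lost without ibrutinib replicate 1 or idelalisib replicate 2 or 3 (−0.32 to −0.27, adjusted p 0.0637 to 0.0931). MS4A1 was called higher only without ibrutinib replicate 3 (0.24, adjusted p = 0.0438).

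In EHEB, 4 of 10 genes were called higher and 0 lower with idelalisib (background 6.77% and 9.09%). They were CD24 (2.26-fold, log2 1.18 ± 0.24, adjusted p = 0.00677, edgeR), CD200 (1.23-fold, 0.30 ± 0.05, adjusted p = 0.00238), LEF1 (1.45-fold, 0.53 ± 0.12, adjusted p = 0.0106) and CD52 (1.31-fold, 0.39 ± 0.11, adjusted p = 0.0297). The LEF1 call was lost in the joint fit (0.54, adjusted p = 0.293). The CD52 call was lost in the fit of only these groups (0.40, adjusted p = 0.0621) and without ibrutinib replicate 1 or 2 or idelalisib replicate 2 or 3 (0.32 to 0.37, adjusted p 0.0912 to 0.112). CD5 was called higher without ibrutinib replicate 2 (0.82, adjusted p = 0.0451). FCER2 and ZAP70, raised by both inhibitors in EHEB, differed between them by 0.01 ± 0.08 (95% interval −0.17 to 0.19) and 0.31 ± 0.18 (−0.10 to 0.71), without passing the test (adjusted p = 0.972 and 0.297).

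Differences of a drug effect between the lines were tested with an interaction term of line and treatment, fitted to 18 libraries per drug, for 9 of the 10 genes. With fludarabine 5 were called (background 39.1%), with ibrutinib 6 (33.6%) and with idelalisib 6 (45.7%). CD38, CD200, FCER2, MS4A1 and CD52 were called with every drug, and CD24 with ibrutinib and idelalisib. The ibrutinib calls of FCER2 (adjusted p = 0.027) and CD24 (adjusted p = 0.0409) were lost without the filter on low counts (adjusted p = 0.0748 and 0.0699, edgeR). Leaving out 1 of 6 libraries also lost FCER2 (adjusted p 0.0502 to 0.0768), 1 of 6 lost CD52 (adjusted p 0.0525 to 0.0921) and 1 of 11 lost CD24 (adjusted p 0.0503 to 0.114), all with ibrutinib, and MEC1 DMSO replicate 2 and MEC1 ibrutinib replicate 3 were among the libraries for each. For CD38 the adjusted p values were 8.87e-11, 1.00e-08 and 5.99e-10 (edgeR). LEF1, CD5 and ZAP70 were called with none, although ZAP70 with idelalisib (adjusted p = 0.0811) passed in DESeq2 (0.00709), limma-voom (0.0212), the joint fit (0.0353) and with counts halved (0.0357), and without JVM2 DMSO replicate 1, JVM2 idelalisib replicate 2 or MEC1 DMSO replicate 2 (0.0202 to 0.0473). LEF1 with idelalisib (0.301) passed in DESeq2 (0.0279), limma-voom (0.0048) and without JVM2 idelalisib replicate 2 (0.0196), and CD5 with fludarabine (0.191) without JVM2 fludarabine replicate 3 (0.0356). ZAP70 held 0 to 6 counts in the JVM2 libraries and entered these fits through MEC1 and EHEB, and LEF1 held 0 to 29 counts in JVM2. No difference between lines is drawn from these passes of ZAP70 and LEF1.

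Most other antibody targets of B cells rose in MEC1 with the kinase inhibitors, as MS4A1 did. Of 14 such genes, ibrutinib raised 9 and lowered 1 (background 23.7% and 23.9%), and idelalisib raised 10 and lowered 0 (27.6% and 27.4%). The median log2 fold change was 0.48 and 0.69. Fludarabine, in contrast, raised 2 and lowered 9 (21.2% and 22.7%). Idelalisib raised CD79B, a signalling chain of the B-cell receptor (log2 1.68 ± 0.10, adjusted p = 1.50e-07, edgeR). In JVM2 2, 3 and 4 rose and 6, 4 and 5 fell with fludarabine, ibrutinib and idelalisib, and in EHEB 5, 3 and 6 rose and 8, 3 and 2 fell. The background in JVM2 was 23.9%, 14.5% and 21.6% higher and 23.3%, 15% and 22.6% lower. In EHEB it was 18.4%, 8.5% and 15.1% higher and 19.2%, 11.2% and 18.2% lower. TNFRSF17, the receptor BCMA, fell with fludarabine in EHEB (−2.51 ± 0.21, adjusted p = 3.29e-06).

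B-cell identity markers were rarely lowered by the kinase inhibitors. Ibrutinib raised 9, 4 and 3 of 10 in MEC1, JVM2 and EHEB and lowered 0 in each, and idelalisib raised 6, 3 and 4 and lowered 0, 1 and 0. The background for ibrutinib was 23.7%, 14.5% and 8.5% called higher and 23.9%, 15% and 11.2% lower. For idelalisib it was 27.6%, 21.6% and 15.1% higher and 27.4%, 22.6% and 18.2% lower. Fludarabine lowered CD79A, the partner of CD79B, in JVM2 from 302 to 79.3 CPM (log2 −1.92 ± 0.07, adjusted p = 4.28e-09, edgeR) and BLK, a Src-family kinase of B cells, in EHEB from 217 to 66.4 CPM (−1.70 ± 0.07, adjusted p = 2.41e-08). Among 6 plasma-cell markers, fludarabine lowered 3, 4 and 4 and raised 0, 1 and 1 in MEC1, JVM2 and EHEB, ibrutinib raised 3, 1 and 1 and lowered 1, 1 and 3, and idelalisib raised 3, 2 and 0 and lowered 2, 2 and 3. For fludarabine the background was 22.7%, 23.3% and 19.2% called lower and 21.2%, 23.9% and 18.4% higher. CD38, which plasma cells also carry, was lowered by fludarabine in EHEB beside JCHAIN, the joining chain of IgM and IgA (710 to 23.7 CPM, −4.90 ± 0.12, adjusted p = 1.74e-09), whereas SDC1 rose there (1.61 ± 0.12, adjusted p = 1.73e-06). In MEC1, where idelalisib raised CD38, it lowered PRDM1, the regulator of plasma-cell fate (−1.99 ± 0.30, adjusted p = 0.000173). Of the 6 markers, however, it raised 3 and lowered 2 there. Their summed level was 1770 to 1800 CPM with DMSO and 2390 to 3080 CPM with idelalisib, led then by JCHAIN at a mean of 1370 CPM.

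The lists of other genes overlap, so their counts are not independent. CD79B is both an antibody target and a B-cell identity marker, and CD79A is both such a marker and in the next list. Of 17 other genes used to grade CLL or to set it apart from other lymphomas, 14 were tested in MEC1 and JVM2 and 16 in EHEB. Fludarabine, ibrutinib and idelalisib raised 4, 8 and 6 and lowered 7, 3 and 3 in MEC1, raised 2, 4 and 4 and lowered 9, 5 and 3 in JVM2, and raised 3, 0 and 4 and lowered 9, 3 and 1 in EHEB. The background over these comparisons was 8.5% to 27.6% called higher and 11.2% to 27.4% lower. Its values by line and drug are those given for the Wnt and LEF1 pathway. CD27, a marker of antigen-experienced B cells, fell in EHEB with fludarabine from 35.3 to 3.41 CPM (log2 −3.37 ± 0.11, adjusted p = 8.41e-09, edgeR), and ITGA4 (CD49d), an adhesion molecule, from 134.1 to 34.1 CPM (−1.96 ± 0.06, adjusted p = 7.04e-09). CCND1, the cyclin of mantle cell lymphoma, was the most abundant gene of this list in vehicle-treated JVM2, at 985 CPM. Among 14 ligands and partners of the members, fludarabine, ibrutinib and idelalisib raised 7, 4 and 3 of 13 tested and lowered 2, 3 and 5 in MEC1, raised 2, 4 and 6 and lowered 5, 0 and 1 of 13 in JVM2, and raised 1, 1 and 2 and lowered 6, 3 and 2 of 12 in EHEB. The background was the same as for the previous list. PECAM1 (CD31), the counter-receptor of CD38, rose with fludarabine in MEC1 from 1.32 to 9.18 CPM (2.76 ± 0.22, adjusted p = 2.35e-06). WNT5A, the ligand of ROR1, rose with idelalisib in EHEB from 1.22 to 3.97 CPM (1.69 ± 0.35, adjusted p = 0.00345), and LAT, a substrate of ZAP70, fell with idelalisib in MEC1 (−1.90 ± 0.55, adjusted p = 0.0123).

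For 8 of the genes, those tested in all lines, the genes most like them were sought by Pearson's r of the log2 mean CPM over the 12 groups. The groups share lines, so these values mainly follow the differences between lines and are given as a description. LEF1 resembled APBB2 (r = 0.997) and DOCK5 (0.995), CD200 resembled ILDR1 (0.989) and KCNK5 (0.988), FCER2 resembled DENND3 (0.987) and GSTM4 (0.956), and CD38 resembled CTSO (0.976) and IFIT5 (0.967). MS4A1 was closest to TSPOAP1-AS1 (0.977) and MICU2 (0.935), CD24 to BCAS1 (0.969) and SLC9A3-AS1 (0.940), CD5 to RABIF (0.921) and PLXNA3 (0.920), and CD52 to SRP14 (0.859) and SPIN1 (0.831).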

How the data were processed

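Gene expression was measured by RNA sequencing in 36 libraries, 3 for each of 4 treatments in each of 3 cell lines. The deposited values are estimated counts per gene symbol, which the authors made by trimming with Trimmomatic, alignment to GRCh38 with HISAT2 version 2.1 and counting with StringTie version 1.3.4 on an Ensembl annotation, and their notes also name edgeR version 3.22.5. The sources used here do not give read length, strand setting, Ensembl release or how symbols were assigned. All counts were whole numbers. The row without a gene symbol, 0.00384% of the counts, was not used. Groups were taken from the sample titles.

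Each line was fitted alone (12 libraries) by the quasi-likelihood F-test of edgeR 4.0.16 (R 4.3.3), after TMM scaling and the filterByExpr filter with its minimum of 10 counts per library and 15 in total, and p-values were adjusted by Benjamini-Hochberg over all genes tested. Vehicle-treated lines were compared on the 9 DMSO libraries, and the line by treatment interaction was tested on 18 libraries per drug. SE is the log2 fold change divided by the root of F. Intervals of log2 differences used the t quantile on 8 residual degrees of freedom. CPM were scaled by TMM over all 36 libraries.

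Alternatives were library size scaling without TMM, DESeq2 1.42.0, limma-voom (limma 3.58.1), no filter on low counts, a filter at a mean of 5 CPM, counts halved, a joint fit of all 36 libraries, a fit of only the groups compared, and each library left out in turn. The genes and the other lists were chosen with earlier results of these data known. The other lists share genes, among them CD79A, CD79B, CR2 and CTNNB1. Named from the other lists were at most 3 genes each, taken by the size of the change among genes called against DMSO whose average log2 CPM reached 1 and whose groups did not overlap. CCND1, TRAC, MPO, ELANE, LYZ and the leading genes of the marker lists were named after their values were seen. The 2 genes most like a member were sought among genes whose average log2 CPM reached 3, with a pseudocount of 0.5 CPM.

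Positions and exon lengths came from GENCODE release 44 and upstream sequences from RefSeq, both on GRCh38. The fitting and testing functions were tried on simulated data for fludarabine in MEC1 with edgeR, limma-voom and DESeq2. With edgeR they were also tried for vehicle-treated MEC1 over JVM2 and for the fludarabine interaction. Other comparisons and settings were not simulated. Within groups, pairs of libraries differed by more than sampling noise (chi-square per degree of freedom 24.9 to 48.9 over 36 pairs).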

Additional observations from a re-analysis of the deposited data

Results flagged for a closer look

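Flagged here are the genes whose response to a drug differed between the lines by the line by treatment interaction in edgeR, with the adjusted p over all genes tested. With fludarabine these were CD38 (8.87e-11), CD200 (4.78e-07), MS4A1 (2.52e-07), CD52 (5.84e-06) and FCER2 (2.35e-05). CD38 rose in MEC1 (log2 2.34 ± 0.14, SE) and JVM2 (1.39 ± 0.06) and fell in EHEB (−1.23 ± 0.07). CD200 rose in MEC1 and fell in JVM2 and EHEB, as MS4A1 did. CD52 rose in MEC1 and fell in JVM2. FCER2 fell in all lines, by 1.43 on the log2 scale in JVM2 but by 0.33 in EHEB.

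With ibrutinib the response differed for CD38 (adjusted p = 1.00e-08), MS4A1 (6.94e-07), CD200 (3.81e-06), CD52 (0.0266), FCER2 (0.027) and CD24 (0.0409), all by edgeR. The last 3 of these did not hold throughout. Without the filter on low counts FCER2 (adjusted p = 0.0748) and CD24 (0.0699) were lost. Leaving out 1 of 6 libraries lost CD52 (adjusted p 0.0525 to 0.0921) and FCER2 (0.0502 to 0.0768), and leaving out 1 of 11 libraries lost CD24 (0.0503 to 0.114). Without MEC1 DMSO replicate 2 or MEC1 ibrutinib replicate 3 all 3 were lost.

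With idelalisib the response differed for CD38 (adjusted p = 5.99e-10), CD200 (2.93e-08), MS4A1 (1.62e-07), CD52 (2.12e-06), CD24 (6.65e-05) and FCER2 (0.00174), all by edgeR. CD200 rose in EHEB (log2 0.88 ± 0.05) and fell in JVM2 (−0.33 ± 0.09), and CD52 rose in MEC1 (1.00 ± 0.11) and fell in JVM2 (−0.67 ± 0.09). CD24 rose in EHEB (2.42 ± 0.26), above its change in MEC1 (0.14 ± 0.16). Exposure times differed between lines, so the lines' responses and their times cannot be told apart.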

How the results depend on the processing

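Of 162 results on these genes, 130 kept their direction and their side of the threshold under all other settings that tested them, 115 with each library left out, and 106 under both. The cause of the changes below was not tested. Among counts of calls, library size scaling gave 2 in place of 1 for idelalisib against ibrutinib in MEC1, and no filter gave 2 in place of 4 for ibrutinib in MEC1. With a library left out, ibrutinib in MEC1 gave 2 to 4 (2 without DMSO replicate 2 or 3 or ibrutinib replicate 1 or 3), idelalisib against ibrutinib in JVM2 1 to 3 (1 without idelalisib replicate 3), and the difference of the ibrutinib effect between lines 3 to 6 (3 without MEC1 DMSO replicate 2 or MEC1 ibrutinib replicate 3). Directions turned only where neither fit passed the test. In log2, library size scaling gave −0.012 for FCER2 with idelalisib and −0.086 for MS4A1 with idelalisib over ibrutinib in MEC1, and 0.058 for LEF1 with fludarabine and 0.040 for CD52 with idelalisib in EHEB. DESeq2 gave −0.0066 for CD5 with ibrutinib in EHEB, limma-voom −0.070 there, −0.10 for CD5 with ibrutinib and −0.78 for LEF1 with idelalisib in JVM2. No filter gave −0.013 for LEF1 with fludarabine and −0.0091 for ZAP70 with ibrutinib in MEC1 and −8.2e-05 for CD5 with ibrutinib in EHEB, the filter at a mean of 5 CPM 0.049 for LEF1 with idelalisib in MEC1, and the joint fit −0.0070 for ZAP70 with ibrutinib in MEC1. With a library left out, values in MEC1 ran from −0.10 to 0.19 for LEF1 with fludarabine, −0.11 to 0.25 for LEF1 and −0.24 to 0.33 for ZAP70 with ibrutinib, −0.17 to 0.12 for LEF1, −0.0072 to 0.24 for CD24 and −0.53 to 0.073 for ZAP70 with idelalisib, and, for idelalisib over ibrutinib, −0.14 to 0.0032 for CD38, −0.23 to 0.033 for LEF1 and −0.0032 to 0.15 for MS4A1. In JVM2 they ran from −0.38 to 0.43 for LEF1 with fludarabine, −0.28 to 0.52 for CD5, −0.14 to 0.44 for CD24 and −1.16 to 0.24 for LEF1 with ibrutinib, −0.66 to 0.82 for LEF1 with idelalisib, and −0.32 to 1.41 for LEF1 with idelalisib over ibrutinib. In EHEB they ran from −0.16 to 0.10 for LEF1 with fludarabine, −0.25 to 0.16 for CD5 and −3.98 to 4.12 for ROR1 with ibrutinib, −0.093 to 0.032 for CD52 with idelalisib, and −0.047 to 0.10 for FCER2 with idelalisib over ibrutinib. Library size scaling moved the median log2 fold change of all genes by 0.25, 0.20 and 0.11 with fludarabine in MEC1, JVM2 and EHEB, by 0.10 with idelalisib in JVM2 and with either kinase inhibitor in EHEB, by −0.17 for idelalisib over ibrutinib in MEC1, and by 0.12 and 0.11 for vehicle-treated MEC1 over JVM2 and EHEB. No paired analysis was possible because the replicate numbers in the titles are not shared between groups. Depth limits what can be said of ROR1, of ZAP70 and LEF1 in JVM2, and of CD5.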

Other observations

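Some markers of other lineages were expressed in these lines, and they were not unchanged by the drugs. With DMSO, TRAC led the T-cell and NK-cell list at a mean of 38.1, 59.2 and 41.8 CPM in MEC1, JVM2 and EHEB. KRT18 reached a mean of 21.9 CPM in JVM2. ITGAM (CD11b), an integrin of myeloid cells, led the myeloid list in every line and rose in MEC1 with idelalisib from 6.46 to 39.8 CPM (log2 2.69 ± 0.10, SE, adjusted p = 2.03e-08, edgeR). Of the 3 myeloid markers tested per line, fludarabine, ibrutinib and idelalisib raised 3, 1 and 2 in MEC1, 1, 1 and 1 in JVM2, and 1, 0 and 0 in EHEB. In the opposite direction, ibrutinib lowered 1 in JVM2, namely CD33 (−0.46 ± 0.15, adjusted p = 0.0439). Of all genes tested against DMSO, 8.5% to 27.6% were called higher and 11.2% to 27.4% lower. The values of this background by line and drug are those given for the Wnt and LEF1 pathway. With DMSO, 5, 4 and 4 of the 8 were at 0 in every library of MEC1, JVM2 and EHEB, the granule and lysozyme genes MPO, ELANE and LYZ in all lines.

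Among T-cell and NK-cell markers, fludarabine raised 4 of 7 in MEC1 and lowered 0, and lowered 2 of 3 in JVM2 and 3 of 7 in EHEB while raising 0 and 1. CD7 fell with fludarabine in EHEB from 5.00 to 0.782 CPM (log2 −2.67 ± 0.29, adjusted p = 2.54e-05, edgeR) and KLRD1 (CD94) in JVM2 from 8.89 to 1.64 CPM (−2.43 ± 0.40, adjusted p = 0.000449). Ibrutinib and idelalisib lowered 3 and 3 in MEC1 and 2 and 2 in JVM2, and raised 0 and 2 in MEC1 and 0 and 0 in JVM2. The background is that given for the myeloid list.

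Of 8 erythroid, epithelial and stromal markers, 3 were tested in MEC1 and EHEB and 4 in JVM2. Each drug raised 1 in MEC1 and lowered 0. In JVM2 fludarabine raised 0 and lowered 3, among them KRT8 (log2 −0.78 ± 0.10, adjusted p = 6.37e-05, edgeR) and KRT18 (−0.67 ± 0.11, adjusted p = 0.000577), and each kinase inhibitor raised 1 and lowered 2. In EHEB fludarabine called 0, and ibrutinib and idelalisib raised 1 each and lowered 0. Here too the background is that given for the myeloid list. COL1A1, a fibrillar collagen chain, rose with idelalisib in EHEB from 1.09 to 12.4 CPM (3.49 ± 0.22, adjusted p = 7.19e-07).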
